A study of Homo sapiens with 4 samples.

Results

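The Notch pathway was followed through 9 of its genes in 4 plates of single MCF10A cells. These were chosen by symbol, as 9 of the 19568 genes with a row in the count tables: the receptors NOTCH1, NOTCH2 and NOTCH3, the ligands JAG1, JAG2 and DLL1, and the targets HES1, HEY1 and NRARP. All 9 had a row in high-resolution replicate 2, and 8 of them had one in each of the other 3 plates, where DLL1 was absent.

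MCF10A is an untransformed human mammary epithelial cell line, here carrying a nuclear H2B-GFP marker. In every sample, 10000 cells were seeded as a round patch on fibronectin (0.1 mg/ml) and grown for 6 days in medium with 5% horse serum, insulin at 10 μg/ml, cholera toxin at 100 ng/ml, EGF at 20 ng/ml and hydrocortisone at 500 ng/ml, so that both groups share one genotype, medium and age. The groups differ in phototagging, the activation of a dye by light in chosen bands of the patch: 2 low-resolution patches had rings of 1000 to 1500 μm, and 2 high-resolution patches had bands of 250 μm at the edge. Cells were released with trypsin, live cells were sorted into 1 plate of 384 wells per patch, and transcripts were counted by SORT-seq, which tags the 3′ end of each mRNA with a unique molecular identifier (UMI). Sorting followed tagging, and the study also sequenced cells from the untagged inside of the patch. A plate thus holds a sorted sample of tagged bands and inner cells and need not mirror its patch. The band of a cell was not used here, and values describe the sorted cells of a plate or cells ranked among them. The study calls the patches of a group biological replicates, and p-values measure the spread between these plates.

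Notch receptors are transmembrane proteins that are activated by Jagged or Delta-like ligands on a neighboring cell. Binding leads to cleavage by an ADAM protease and by γ-secretase, after which the intracellular part enters the nucleus and turns the DNA-binding protein RBPJ into an activator of genes such as HES1, HEY1 and NRARP. In mammary epithelium the pathway is known for its part in the choice between basal and luminal fates, and ligands and receptors in the same cell can inhibit each other.

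Cells with 2000 to 9000 features and a mitochondrial share under 40% were kept: between 271 and 293 cells per plate, 1146 in all. Their median depth was 29178 to 32129 UMIs in the low-resolution plates and 34050 to 39237 in the high-resolution plates, so shares of cells are given at full depth and after thinning each cell to 10000 UMIs. The file names place low-resolution replicate 1 on a different flow cell from the other 3 plates. Epithelial and basal markers were present (KRT8 in 98.3% to 99.3% of cells, KRT5 in 99.6% to 100%), although TP63, a basal regulator, reached only 2.58% to 4.12%. The epithelial markers CDH1 (47.8% to 65.7%) and EPCAM (59.0% to 70.8%) and the basal marker KRT14 (43.9% to 77.3%) were also found in fewer cells. Levels are given in CPM, the counts of a gene per 1000000 gene counts of the plate's kept cells. All 3 hematopoietic markers had a UMI in some plate, at 0.101 to 0.517 CPM in sum. The 3 endothelial markers summed to 14.1 to 21.4 CPM, with CDH5 and VWF at or under 0.202 CPM per plate and PECAM1 giving the rest. The 4 fibroblast markers all had a UMI and summed to 6.54 to 12.8 CPM, of which COL1A1 gave 6.05 to 8.87 CPM. The part of these markers in the results was not tested.

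NOTCH2 was the most abundant receptor. Summed over the cells of a plate, its level was 49.7 and 48.8 CPM in low-resolution replicates 1 and 2, and 48.0 and 43.6 CPM in high-resolution replicates 1 and 2. At least 1 NOTCH2 UMI was found in 71.5% and 73.4% of the cells at low resolution, against 78.7% and 77.8% at high resolution. At 10000 UMIs per cell these shares were 41.8% and 38.1% against 41.9% and 34.7%, and the groups overlapped. Since each mRNA gives 1 tag whatever its length, CPM levels can be set side by side between genes without a length correction. The gene lies on the minus strand at chr1:119911553-120069626 (GENCODE v29, GRCh38). Its near-identical paralog NOTCH2NL had a row of its own with 14.9 to 22.8 CPM, and how the counting split reads between them is not given in the sources used here.

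NOTCH1 (chr9:136494433-136545786, minus strand) was the next receptor, with 25.7 and 19.2 CPM at low resolution and 20.8 and 17.5 CPM at high resolution, so that the groups overlapped. Its share of cells was 46.0% and 44.3% against 47.8% and 49.1%, and 19.9% and 19.8% against 20.8% and 15.1% at 10000 UMIs. NOTCH3 (chr19:15159038-15200981, minus strand) was lower, with 10.0 and 11.6 CPM at low resolution and 5.60 and 6.73 CPM at high resolution. NOTCH3 was found in 22.0% and 28.8% of low-resolution cells and in 16.5% and 18.8% of high-resolution cells, and at 10000 UMIs in 9.06% and 9.70% against 6.69% and 7.56%. Both of its low-resolution values lay above both high-resolution values at either depth. The levels of the 3 receptors did not overlap over the 4 plates. At least 2 UMIs were found in 41.6% to 51.5% of cells for NOTCH2, 18.1% to 19.6% for NOTCH1 and 4.12% to 9.96% for NOTCH3. An antisense gene, AL592301.1, overlaps NOTCH1, and whether the counting used strand is not given in the sources used here.

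The Jagged ligands were found in fewer cells than NOTCH1 or NOTCH2. JAG1 (chr20:10637684-10673999, minus strand, overlapped by the antisense gene AL050403.2) had 7.99, 7.73, 8.75 and 7.98 CPM in low-resolution replicates 1 and 2 and high-resolution replicates 1 and 2. These levels were even, with a mean of 8.11 ± 0.442 CPM (SD, n = 4 plates). JAG2 (chr14:105140981-105168824, minus strand, overlapped by AL512356.1 on the same strand) had 6.77, 4.86, 4.90 and 4.65 CPM in the same order. JAG1 UMIs were present in 18.6% to 26.8% of cells per plate and JAG2 UMIs in 14.8% to 17.1%, against 6.62% to 10.2% and 4.58% to 5.97% at 10000 UMIs.

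DLL1, the Delta-like ligand of the group (chr6:170282206-170306565, minus strand, overlapped by FAM120B on the other strand), was all but missing. A single UMI was found, in 1 of 293 cells of high-resolution replicate 2. In low-resolution replicate 1 and high-resolution replicate 1 it was seen in 0 of 291 cells, which allows up to 1.03% of cells with a UMI. In low-resolution replicate 2 it was seen in 0 of 271 cells, which allows up to 1.11%. These limits (3 counts of the total) hold for cells with a UMI at this depth, not for cells that express the gene, and cover counting error only.

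HES1, a transcriptional repressor, stood far above the rest, with 482 and 690 CPM at low resolution and 711 and 717 CPM at high resolution. The 3 plates of the shared flow cell lay close together, and low-resolution replicate 1 lay below them. HES1 was found in 97.6% to 100% of cells, with a median of 13, 21, 23 and 28 UMIs per cell in the order above and up to 242 UMIs in 1 cell. After thinning, the variance of its UMIs was 3.29 to 4.28 times their mean, against 0.921 to 1.53 times for the other 8 members. This ratio grows with the mean, and HES1 has by far the highest mean of the 9 genes, so it does not rank the members by how much they vary. HES1 lies at chr3:194136145-194138732 on the plus strand, with no overlapping gene.

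**Figure D1:**
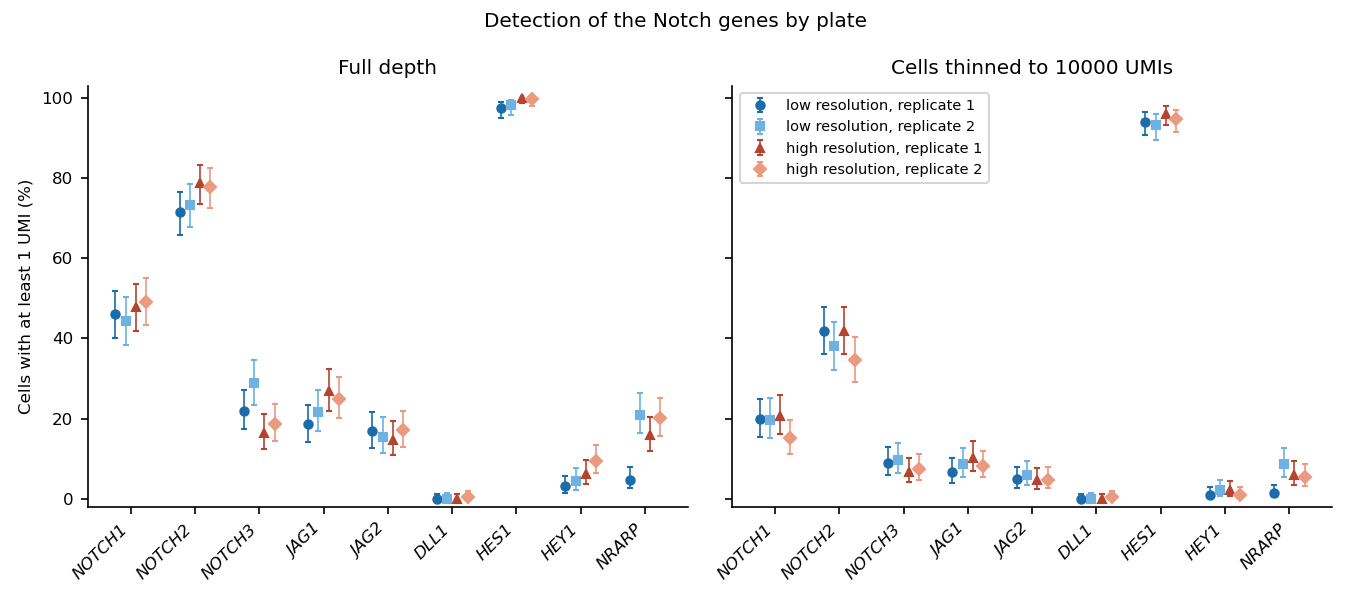
Share of cells (%, y axis) with at least 1 UMI of each gene (x axis) in the 4 plates, at full depth (left) and after thinning every cell to 10000 UMIs (right). Points are plates and bars are exact binomial 95% intervals; HES1 stays above 93% at both depths, while NOTCH2 falls from between 71.5% and 78.7% to between 34.7% and 41.9%.

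The RBPJ sites of the HES1 promoter are among the best known of the pathway, and a stretch of that promoter is shown because HES1 held most of the UMIs of the 9 genes. Promoters from RefSeq (GRCh38.p14) were available for 7 of the 9 genes, not for DLL1 and HEY1. The 250 bases before each start were searched on both strands for the RBPJ core motif TGGGAA, and for GTGGGAA, a longer form that contains it. Capitals mark the TGGGAA matches on the plus strand at chr3:194136059-194136088:

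HES1: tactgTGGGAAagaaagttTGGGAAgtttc

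The matches begin 84 and 70 bases before the RefSeq start, in the same orientation, and the first of them is also a GTGGGAA. These distances are not counted from the GENCODE start of HES1 given above, which differs slightly. Of 35116 promoters in the table, 20.8% hold TGGGAA, 2.90% hold it at least 2 times and 5.43% hold GTGGGAA. The other 6 promoters searched, NRARP among them, hold no match in this window. A match is a description of the sequence and not a measured binding site.

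NRARP, a small protein that binds the Notch complex and dampens it, varied widely between plates. Its level was 1.92 and 9.42 CPM in low-resolution replicates 1 and 2, and 5.78 and 6.72 CPM in high-resolution replicates 1 and 2. It was present in 4.81% of cells of low-resolution replicate 1 and in 15.8% to 21.0% of cells in the other 3 plates, so that the low-resolution plates differed more from each other than from the high-resolution plates. NRARP lies at chr9:137300482-137302251 on the minus strand. HEY1, a repressor related to HES1 (chr8:79764010-79767863, minus strand), was rare, with 0.910 and 1.68 CPM at low resolution and 2.10 and 2.81 CPM at high resolution. Only 9, 17, 24 and 38 HEY1 UMIs stand behind these values.

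By mean CPM over the 4 plates the order was HES1 (650 ± 113), NOTCH2 (47.5 ± 2.71), NOTCH1 (20.8 ± 3.52), NOTCH3 (8.48 ± 2.79), JAG1 (8.11 ± 0.442), NRARP (5.96 ± 3.10), JAG2 (5.30 ± 0.990), HEY1 (1.88 ± 0.793) and DLL1 (SD, n = 4 each). The neighbors NOTCH3 and JAG1, JAG1 and NRARP, and NRARP and JAG2 overlapped between plates, and their order is not larger than the spread. In the 222 wells with under 2000 features, which held a median of 1395 to 4700 UMIs per plate, HES1 UMIs were present in 48.0% to 65.1% of wells, NOTCH1 in 0% to 15.9% and NOTCH2 in 3.92% to 10.3%. JAG1 and JAG2 reached at most 1.72% and 4.76% of those wells.

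**Figure D2:**
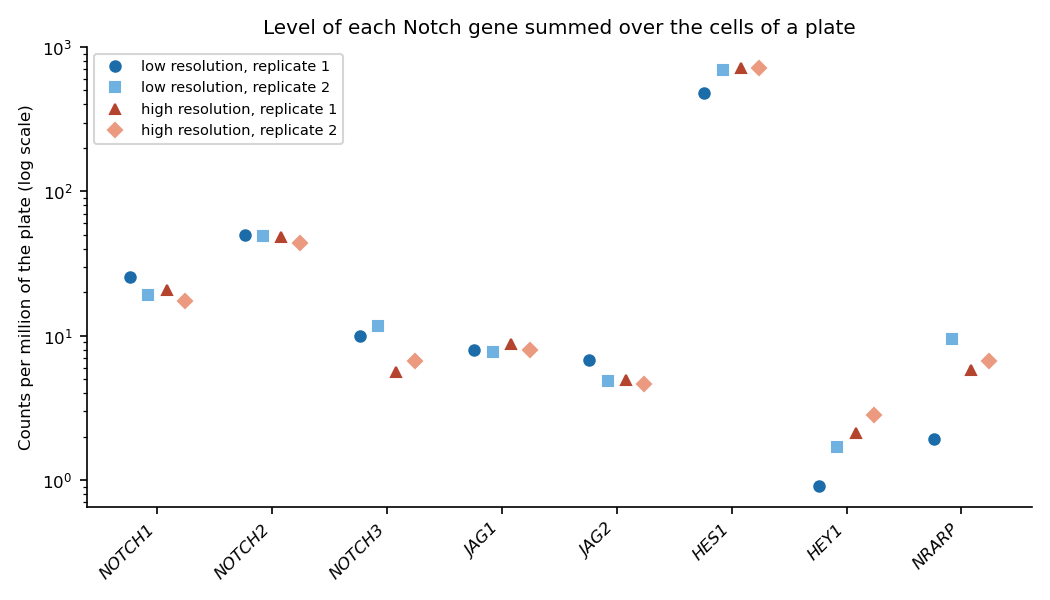
Level of each gene except DLL1 (x axis) in CPM (y axis, log scale). Points are plates. Both low-resolution plates lie above both high-resolution plates for NOTCH2 and NOTCH3 and below them for HEY1 and HES1. Of these genes only NOTCH3 was called between the resolutions by edgeR, and the share of all genes that separate in this way was not counted. NRARP of low-resolution replicate 1 is the lowest of its 4 points at 1.92.

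The kept cells of the high-resolution plates were compared with those of the low-resolution plates. The bands differed in width and place between the experiments. A difference in the mix of sorted bands and inner cells thus cannot be told apart from the resolution in this comparison, EMT markers included. NOTCH3 was lower in the high-resolution plates, with a log2 fold change of -0.77 ± 0.22 (SE, 2 plates against 2) and an adjusted p of 0.0361 in edgeR's quasi-likelihood test. It was the single member called among the 8 that could be tested, or 12.5%, beside 12.4% of all genes (1546 of 12429; 6.25% higher and 6.19% lower). In such sums, fewer cells with a gene and less of its RNA per cell cannot be told apart. NOTCH3 was not called by DESeq2 (adjusted p = 0.101), nor without low-resolution replicate 2 (log2 fold change -0.62, adjusted p = 0.125) or high-resolution replicate 1 (-0.65, adjusted p = 0.160). With a plate left out, 1 plate stands against 2 and is assumed to vary like the plates of the other group. Summed after thinning to 10000 UMIs, its log2 fold change was -0.29 with an adjusted p of 0.618.

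The other members passed no test here. HEY1 had a log2 fold change of 0.95 ± 0.41 (adjusted p = 0.150) and HES1 one of 0.31 ± 0.16 (adjusted p = 0.212). NRARP stood at 0.16 ± 0.47 (adjusted p = 0.860), which turned to -0.59 (adjusted p = 0.162) without low-resolution replicate 1 and became a call at 1.78 (adjusted p = 0.00601) without low-resolution replicate 2. Without low-resolution replicate 2 HES1 was also called, at 0.65 (adjusted p = 0.00760), and without low-resolution replicate 1 it stood at 0.049. NOTCH1, NOTCH2, JAG1 and JAG2 had log2 fold changes between -0.25 and 0.12. The high-resolution plates as a whole lay further toward the mesenchymal side in 3 of 4 marker genes: VIM, a mesenchymal filament protein, rose by 0.94 and FN1, fibronectin, by 0.77 on the log2 scale, CDH1, E-cadherin, fell by 0.68, and EPCAM, an epithelial adhesion protein, stood at -0.11 and was not called.

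Along the epithelial-to-mesenchymal transition (EMT), 6 of the 7 members that could be tested changed. Cells were scored with the study's lists of epithelial (E) and mesenchymal (M) genes, as M minus E, and split within each plate into terciles of 90 to 98 cells; none of the 9 members is in either list. NOTCH2 and JAG1 rose from the lowest to the highest tercile, NOTCH1, JAG2, HES1 and NRARP fell, and NOTCH3 was not called. The share called was 85.7% of the members, beside 40.6% of 10588 genes outside the lists (20.1% higher and 20.6% lower), so a call as such is common in this comparison. The terciles are ranges of a score, with 8 to 27 cells within 0.05 of a boundary. CDH1 and EPCAM fell by 4.54 each and VIM and FN1 rose by 5.44 and 4.36 on the log2 scale, but these 4 genes are in the lists and helped to set the score.

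Among the receptors, NOTCH2 rose and NOTCH1 fell. NOTCH2 had 42.9, 40.9, 38.3 and 29.2 CPM in the lowest tercile of low-resolution replicates 1 and 2 and high-resolution replicates 1 and 2, against 66.6, 70.9, 60.8 and 63.6 CPM in the highest. All 4 values of the highest tercile lay above all 4 of the lowest. The middle tercile held 40.4, 35.7, 46.3 and 38.1 CPM, below the lowest tercile in both low-resolution plates. The log2 fold change was 0.72 ± 0.11 (SE, 4 plates, plate as a block) with an adjusted p of 0.000262 in edgeR's quasi-likelihood test. The paralog row NOTCH2NL stood at 0.04 ± 0.14 (adjusted p = 0.841).

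NOTCH1 had 42.0, 24.7, 24.8 and 19.5 CPM in the lowest tercile and 16.3, 10.9, 20.7 and 16.7 CPM in the highest, in the same order of plates. It was lower in the highest tercile than in the lowest in every plate. On the log2 scale it was lower by 1.37 and 1.18 in the low-resolution plates and by 0.26 and 0.22 in the high-resolution plates. Its middle tercile held 15.8, 21.2, 15.8 and 16.3 CPM, the lowest of the terciles in all plates but low-resolution replicate 2. The fitted log2 fold change was -0.81 ± 0.20 (adjusted p = 0.00604). NOTCH3 had 12.3, 12.6, 6.42 and 7.87 CPM in the lowest tercile and 12.9, 12.5, 4.04 and 8.70 CPM in the highest, with a log2 fold change of -0.15 ± 0.19 (adjusted p = 0.570). In 3 of the 4 plates NOTCH3 was lowest in the middle tercile.

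The ligands JAG1 and JAG2 moved in opposite directions. JAG1 had 5.46, 4.30, 3.90 and 4.49 CPM in the lowest tercile and 10.0, 12.8, 12.4 and 10.9 CPM in the highest, and in every plate the middle tercile lay between them. Its log2 fold change was 1.26 ± 0.21 (adjusted p = 0.000531). JAG2 had 7.10, 8.07, 7.56 and 6.74 CPM in the lowest tercile and 4.08, 3.12, 3.50 and 2.68 CPM in the highest, with no overlap between them. Its log2 fold change was -1.23 ± 0.23 (adjusted p = 0.00135). In the lowest tercile JAG2 was the higher ligand in all 4 plates, and in the highest tercile JAG1 was. After thinning, these ligands did not reach the count minimum of the test.

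HES1 and NRARP both fell with the score. HES1 had 586, 816, 792 and 871 CPM in the lowest tercile, 482, 747, 703 and 670 CPM in the middle and 362, 486, 624 and 612 CPM in the highest, a downward order in all 4 plates, although the lowest and the highest tercile overlapped between plates. Its log2 fold change was -0.66 ± 0.08 (adjusted p = 6.36e-05). NRARP had 3.82, 15.6, 9.63 and 13.7 CPM in the lowest tercile and 1.64, 9.79, 5.68 and 3.70 CPM in the middle. In the highest tercile it had 0 UMIs in low-resolution replicate 1 and 1.87, 1.35 and 2.90 CPM in the other plates. From 14, 58, 42 and 61 UMIs in the lowest tercile, 0, 6, 5 and 13 remained in the highest, and the fitted log2 fold change was -2.82 ± 0.31 (adjusted p = 2.38e-05), the largest of the members.

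HEY1 did not pass the filter on low counts in this comparison. Its UMIs numbered 3, 1, 4 and 6 in the lowest tercile and 3, 8, 13 and 14 in the highest. With no filter its log2 fold change was 1.45 ± 0.52 (adjusted p = 0.0226). Without low-resolution replicate 1 it passed the filter and was called at 1.71 ± 0.48 (adjusted p = 0.0163), and with 2 equal parts in place of terciles it was 0.79 ± 0.41 (adjusted p = 0.175). HEY1 thus had no fewer UMIs in the highest tercile than in the lowest in any plate, unlike the other two targets.

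**Figure D3:**
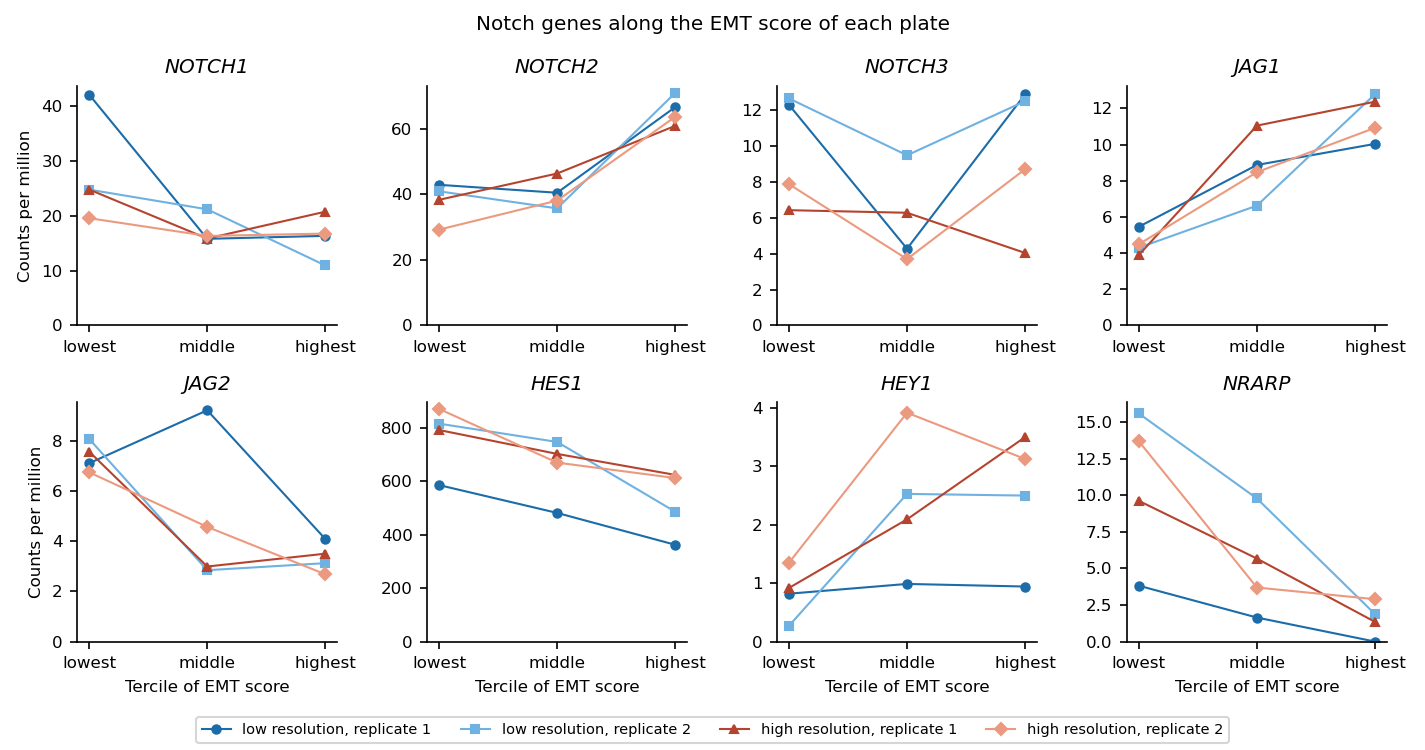
Level in CPM (y axis, from 0) of 8 Notch genes in the lowest, middle and highest tercile of the EMT score (x axis), with 1 line per plate. JAG1 rises and HES1 and NRARP fall at both steps in all 4 plates, while NOTCH1 falls from 42.0 to 16.3 in low-resolution replicate 1 and from 19.5 to 16.7 in high-resolution replicate 2.

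Other properties of the cells moved with the score. The median mitochondrial share was 31.7% to 33.8% in the lowest tercile and 25.9% to 29.04% in the highest, lower in every plate. Median depth went from 31956 to 26709 UMIs and from 35125 to 29194 UMIs in the low-resolution plates, and from 37418 to 37264 and from 36201 to 40395 in the high-resolution plates. The median G2/M score was higher in the highest tercile of all 4 plates. With mitochondrial counts left out, and with the highest tercile of the G2/M score left out, 6 members were again called. In sums of cells thinned to 10000 UMIs, NOTCH1, NOTCH2 and HES1 reached the count minimum and all 3 were called. They are the members with the most UMIs, and the share of all genes called after thinning is not given here.

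Shares of cells at equal depth gave the same order for most of these genes, as a description. From the lowest to the highest tercile, the share with a NOTCH2 UMI went from 37.5% to 49.5% and from 37.8% to 52.8% in low-resolution replicates 1 and 2, and from 35.8% to 48.9% and from 22.7% to 45.4% in high-resolution replicates 1 and 2. The share with NRARP went from 3.12% to 0%, from 15.6% to 2.25%, from 7.37% to 1.06% and from 11.3% to 2.06%. For JAG2 it went from 5.21% to 4.21%, from 10.0% to 3.37%, from 5.26% to 2.13% and from 6.19% to 3.09%, and all 3 genes moved one way in all 4 plates. JAG1 was less clear at this depth, with 3.12% to 12.6% in low-resolution replicate 1 but 10.0% to 10.1% in replicate 2, and 6.32% to 10.6% and 5.15% to 9.28% at high resolution. NOTCH1 went from 32.3% to 12.6%, from 27.8% to 13.5% and from 27.4% to 20.2% of cells in the first 3 of the plates, and stood at 13.4% and 14.4% in high-resolution replicate 2.

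Of 47 other genes of the pathway, 37 could be tested along the score. Of these, 8 rose, 7 fell and 22 were not called, a share of 40.5% called beside 40.6% of genes outside the lists. The median log2 fold change of the 37 was -0.01, beside a median near 0 over all genes outside the lists. Those that rose most were DTX3, a Deltex ubiquitin ligase (1.70 ± 0.40, adjusted p = 0.00503), POGLUT1, which glucosylates the EGF repeats of Notch (0.74 ± 0.14), RBPJ itself (0.73 ± 0.09, adjusted p = 7.53e-05), NUMBL, a relative of the Notch inhibitor NUMB (0.72 ± 0.20), and the protease ADAM10 (0.38 ± 0.11). Those that fell most were HES2 (-1.91 ± 0.38), the ubiquitin ligase DTX4 (-1.83 ± 0.19, adjusted p = 1.50e-05), HES7 (-1.30 ± 0.25), DTX2 (-1.15 ± 0.28) and HES4 (-0.76 ± 0.23). Of the 4 other HES genes tested, HES2, HES4 and HES7 fell and HES6 was not called (-0.61, adjusted p = 0.176). DESeq2 called 9 of the 37, and its share over all genes is not given here.

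Between the resolutions, 6 of 38 pathway genes were called, or 15.8%, beside the 12.4% of all genes. DESeq2 called 5 pathway genes, and edgeR called 2 after thinning to 10000 UMIs. The shares of all genes called in those fits are not given here, so a general loss of calls cannot be told apart. DLK2, a noncanonical relative of the Delta ligands, rose by 0.91 ± 0.24. DTX4 (-1.12 ± 0.18), the fringe glycosyltransferase LFNG (-0.99 ± 0.26), the coactivators CREBBP (-0.66 ± 0.13) and EP300 (-0.59 ± 0.13) and the corepressor SPEN (-0.50 ± 0.12) fell. DTX4 and LFNG were lower both in the high-resolution plates and in the highest tercile of the EMT score. Along the score LFNG stood at -0.60 ± 0.21 (edgeR, adjusted p = 0.0438). The genes NOTCH4, DLL3, DLL4, DLK1, MFNG, NEURL1, DTX1, HES5, HEY2 and HEYL did not reach the count minimum along the score.

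The cell cycle was the other axis along which members were compared, by a G2/M score over 54 genes that was split into terciles in the same way. NOTCH3 was the single member called of 7, or 14.3%, beside 47.7% of all genes tested (24.3% higher and 23.5% lower). Its level was 8.51, 14.1, 11.5 and 15.4 CPM in the lowest tercile and 8.37, 6.74, 2.62 and 4.20 CPM in the highest, again for low-resolution replicates 1 and 2 and high-resolution replicates 1 and 2. The log2 fold change was -1.31 ± 0.26 (adjusted p = 0.000419), and low-resolution replicate 1 alone showed almost no difference, at -0.02. At equal depth the share of cells with NOTCH3 went from 9.38% to 7.37%, from 12.2% to 5.62%, from 13.7% to 3.19% and from 15.5% to 4.12%, lower in the highest tercile of every plate. JAG2 had -0.57 ± 0.26 (adjusted p = 0.0744), NRARP -0.54 ± 0.28 (adjusted p = 0.116), NOTCH2 -0.16 ± 0.10 (adjusted p = 0.178), NOTCH1 -0.14 ± 0.17 (adjusted p = 0.524), HES1 -0.10 ± 0.10 (adjusted p = 0.426) and JAG1 -0.02 ± 0.22 (adjusted p = 0.957). NOTCH2NL, unlike NOTCH2, was called at -0.73 ± 0.16 (adjusted p = 0.00104).

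Between 59 and 97 cells per plate lay within 0.05 of its lower boundary. Median depth rose along it, from between 24812 and 31028 UMIs in the lowest tercile to between 38957 and 55816 in the highest. The median mitochondrial share was lower in the highest tercile of every plate, at 25.5% to 28.6% against 31.3% to 33.5%, and its part in the NOTCH3 result was not tested. Of the 36 pathway genes that could be tested, 3 rose and 12 fell, or 41.7%, beside 47.7% of all genes tested (24.3% higher and 23.5% lower). DESeq2 called 6 pathway genes, and its share over all genes is not given here. The fallen include DTX4 (-1.60 ± 0.17), the coactivators MAML3 (-1.52 ± 0.34) and MAML2 (-0.71 ± 0.18), HES2 (-0.86 ± 0.29) and the γ-secretase subunit APH1B (-0.77 ± 0.15). The risen are the O-fucosyltransferase POFUT1 (0.55 ± 0.14), the coregulator SNW1 (0.32 ± 0.12) and RBPJ (0.20 ± 0.08).

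**Figure D4:**
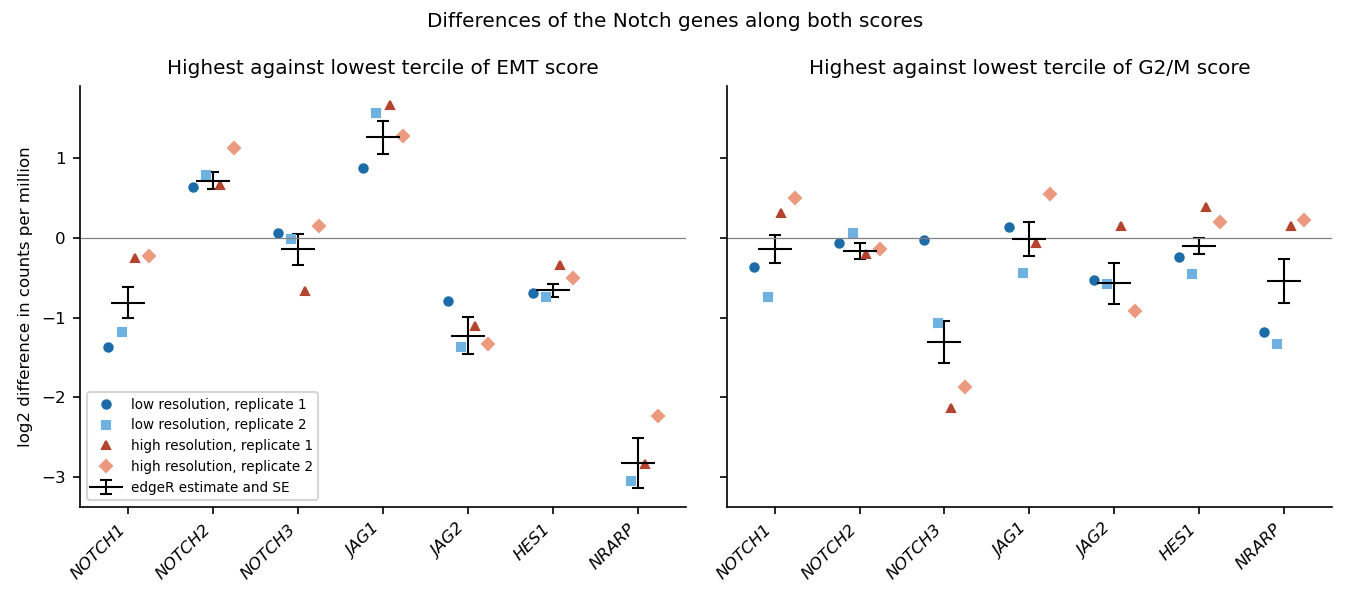
Difference between the highest and the lowest tercile of the EMT score (left) and of the G2/M score (right), in log2 of CPM (y axis), for 7 genes (x axis). Colored points are plates, and black bars are the edgeR estimate with its SE; NRARP of low-resolution replicate 1 has no point on the left because its highest tercile held 0 UMIs, and HES1 lies below 0 in both low-resolution plates and above 0 in both high-resolution plates on the right.

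Whether these differences depended on the resolution was tested by interaction terms. For the EMT score, NOTCH1 was called with a log2 difference of 1.06 ± 0.25 (high minus low resolution, edgeR, adjusted p = 0.0309). The share called was 2.76% of genes outside the lists (0.916% higher and 1.84% lower). NOTCH1 fell less along the score in both high-resolution plates than in either low-resolution plate. CDH1 was called as well, at -1.33 ± 0.34, so it fell more along the score in the high-resolution plates. FN1 stood at -1.06 ± 0.32 in the same test and was not called (adjusted p = 0.0889). The NOTCH1 call was lost without low-resolution replicate 1 (0.94), low-resolution replicate 2 (1.15) or high-resolution replicate 2 (1.03). It was also lost after thinning (1.35, edgeR adjusted p = 0.175). DESeq2 called no member, but it gave NOTCH1 no adjusted p. HES1 stood at 0.30 ± 0.10 (adjusted p = 0.124). None of the 37 pathway genes was called by edgeR or DESeq2, and 6 had an unadjusted p under 0.05 in edgeR.

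For the G2/M score, HES1 was the single member called by the interaction test, at 0.65 ± 0.10 (adjusted p = 0.00112), beside 0.888% of all genes (0.0841% higher and 0.803% lower). This test was added after the values per plate had been seen. HES1 went from 520 to 439 CPM and from 815 to 593 CPM between the lowest and the highest tercile of the low-resolution plates. It went from 619 to 808 CPM and from 687 to 786 CPM in the high-resolution plates. The difference thus had opposite signs in the low-resolution and the high-resolution plates, and it was called under all 6 alternatives, with values of 0.54 to 0.74. VIM (-1.02 ± 0.18) and FN1 (-1.32 ± 0.14) were called in the same test. The median EMT score rose from the lowest to the highest G2/M tercile in every plate, from between -0.420 and 0.269 to at most 0.476, and its part in the result was not tested.

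Ligand and receptor were found in the same cell in a minority of cells. At full depth, a cell with a UMI of any ligand and of any receptor made up 26.8% and 31.7% of cells at low resolution and 32.3% and 34.1% at high resolution. Any receptor was found in 83.2% to 88.7% of cells, and 7.56% to 13.1% had neither. All 3 receptors were found together in 7.22% to 12.2% of cells. At 10000 UMIs per cell, the share with a ligand and a receptor was 7.32%, 8.96%, 8.10% and 6.87%, and the order of the plates at full depth was not kept. The difference between the resolutions was not tested.

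The pair found most often was JAG1 with NOTCH2, in 225 of 1146 cells at full depth and in 39 of 1130 at 10000 UMIs. Against the product of the shares of both genes, JAG1 and NOTCH2 were found together 1.14, 1.15, 1.16 and 1.06 times as often at full depth, in low-resolution replicates 1 and 2 and high-resolution replicates 1 and 2. At equal depth the mean ratio was 1.06 ± 0.0952 (SD, n = 4 plates), with 2 plates over 1. Ratios at full depth also hold differences in depth between the cells of a plate.

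JAG2 with NOTCH2 followed, in 150 cells at full depth and 25 at equal depth (ratio 1.13 ± 0.193). JAG1 with NOTCH1 was found in 119 cells at full depth, with a ratio below 1 in 3 of 4 plates (0.804, 0.919, 1.10 and 0.948). At equal depth it was found in 15 cells (0.821 ± 0.482). JAG2 with NOTCH1 was found in 26, 19, 24 and 34 cells, with ratios of 1.15, 1.02, 1.17 and 1.38. At equal depth it was found in 15 cells in all (1.52 ± 1.03). Neither NOTCH1 pair kept its side of 1 at equal depth in cells drawn anew without the mitochondrial limit, where JAG1 with NOTCH1 had 27 of 1286 cells (1.38 ± 0.403) and JAG2 with NOTCH1 had 7 (0.490 ± 0.126). At 20000 UMIs both kept it, at 0.885 ± 0.136 and 1.12 ± 0.267. The pairs with NOTCH3 numbered 64 cells for JAG1 and 42 for JAG2. DLL1 gave 0 pairs at equal depth. The median ratio over the ligand and receptor pairs was 1.08 ± 0.133 (SD, n = 4 plates), or 1.14 ± 0.106 without the DLL1 pairs, which could be computed in 1 plate only. In each plate and pair the product lay inside the exact binomial interval of the observed share at full depth, an interval that does not use the number of cells with each gene and so says little about small departures from the product. At equal depth the product also lay inside, except for JAG2 with NOTCH1 in high-resolution replicate 2, where 2.06% was observed, with a lower bound of 0.760%, against a product of 0.727%. Without the mitochondrial limit that pair lay below the product in all 4 plates, so the departure was not kept with other cells and another thinning draw.

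Receptors were also found together. At full depth NOTCH1 with NOTCH2 was found in 431 cells (36.4%, 34.7%, 39.2% and 39.9% per plate), NOTCH2 with NOTCH3 in 202 and NOTCH1 with NOTCH3 in 131. The ratio to the product was above 1 in all 4 plates for each of these pairs, at 1.04 to 1.11, 1.03 to 1.14 and 1.07 to 1.22. At equal depth it was 0.956 ± 0.137 for NOTCH1 with NOTCH2, 1.25 ± 0.251 for NOTCH2 with NOTCH3 and 1.34 ± 0.201 for NOTCH1 with NOTCH3 (SD, n = 4 plates), the last resting on 23 cells. JAG1 and JAG2 shared 53 cells at full depth and 4 at equal depth.

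**Figure D5:**
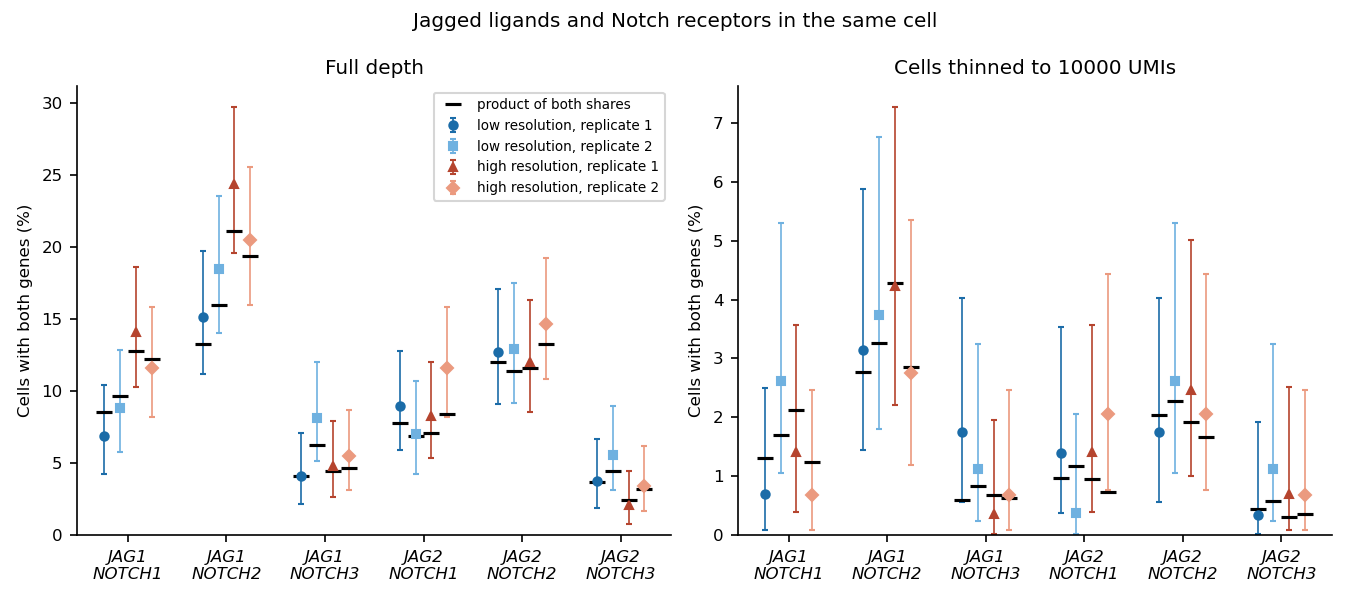
Share of cells (%, y axis) with UMIs of both a Jagged ligand and a Notch receptor (x axis, 6 pairs), at full depth (left) and in cells thinned to 10000 UMIs (right). Points are plates with exact binomial 95% intervals, and black dashes are the product of the shares of both genes; JAG1 with NOTCH2 is the highest pair on the left, at 15.1% to 24.4%.

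HES1 was also compared between cells with and without a UMI of each partner, at equal depth and as a description, since cells of 1 plate are no replicates. In cells with JAG1 the mean HES1 count was 0.783, 0.797, 0.895 and 0.845 times that of cells without, below 1 in all 4 plates. In cells with JAG2 it was 1.11, 1.08, 1.16 and 1.18 times as high. In cells with NRARP it was 1.51, 1.31, 1.11 and 1.78 times as high, resting on 4 to 23 NRARP cells per plate. For the receptors the ratios fell on both sides of 1, with 0.947 to 1.16 for NOTCH1, 0.912 to 1.02 for NOTCH2 and 0.771 to 1.05 for NOTCH3. Along the EMT score, JAG1 rose while JAG2, NRARP and HES1 fell.

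Cell by cell, all rank correlations of the members were weak. At the depth used, every member but HES1 had no UMI in most cells, which limits how far from 0 such values can lie. HES1 had a mean Spearman rho of -0.22 with the EMT score (-0.29 to -0.15 over the plates, 268 to 291 cells each, 10000 UMIs per cell) and of -0.24 with FN1. NOTCH2 had 0.15 with the score, NRARP -0.13, NOTCH1 -0.11, JAG1 0.08 and JAG2 -0.06. Between members no mean rho exceeded 0.10 in size, the value for HES1 with NRARP. The genes whose pattern was most like a member's were sought for NOTCH1, NOTCH2 and HES1, the members with a UMI in 20% of the cells or more in all plates, among 4407 genes. For HES1 they included AZGP1 (mean rho 0.25) and FXYD3 (0.24). For NOTCH2 they were FN1 (0.21), HTRA1 (0.16) and EMP3 (0.16), and for NOTCH1 they were ZBTB20 (0.15), ADGRG1 (0.14) and UCA1 (0.14). The cells of a plate share its library, and these values are given with no test.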

How the data were processed

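Members and gene lists were chosen with earlier results of these data known. The authors deposited an expected count per gene and well, in which the number of UMIs was adjusted for the chance of repeated UMI sequences, with no scaling. The submitters' processing notes name STAR 2.7.3a, Seurat 4 and hg38; the annotation is not stated in those sources. For shares and thinning, the correction (4096 UMI sequences) was undone. Plates held 11709628, 12203397, 13211394 and 14992348 counts. Limits on cells follow the study's methods. Between 321 and 334 wells per plate passed the feature limits, and 271 to 293 both limits. The study states more analysed cells than either number gives, and the reason was not found. Spike-ins were left out, and no doublet caller was run.

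The EMT score was M minus E from GSVA, rewritten for this work and run per experiment (64 of 65 E and 103 of 115 M genes found). The G2/M score was a mean z-score per plate. Counts were summed per plate, or per plate and tercile, rounded and fitted with edgeR 4.0.16 (TMM, filterByExpr, quasi-likelihood test; called at a Benjamini-Hochberg adjusted p under 0.05; plate as a block for terciles). SEs come from the fold change and F. Alternatives were DESeq2 1.42.0, no filter, thinning, other cell limits or scores, and left-out plates. In simulated data with 200 genes changed, 100 of them 2-fold, the EMT fit (11455 genes) recovered 90% of the 2-fold changes at a dispersion of 0.01 and 44% at 0.05, and of the 1.5-fold changes 53% and 8%. The resolution fit (12013 genes) recovered 79% and 1%, and 38% and 0%. Named are the 9 members, 4 EMT markers, up to 5 called pathway genes with the largest change per direction and comparison, and 3 genes most like each member, of which 1 is not reported here. Intervals and limits at 0 (3 counts) cover counting error only.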

Additional observations from a re-analysis of the deposited data

Results flagged for a closer look

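The fall of NOTCH1 along the EMT score differed between the experiments, by 1.06 on the log2 scale (edgeR interaction, adjusted p = 0.0309). That call was lost in 4 of 8 other edgeR settings. DESeq2 called no member, but it gave NOTCH1 no adjusted p. The difference of HES1 along the G2/M score differed by 0.65 (adjusted p = 0.00112), with both low-resolution plates below 0 and both high-resolution plates above. The same crossing of signs was seen for NOTCH1, with an interaction of 0.95 (adjusted p = 0.0960), and for NRARP, with 1.49 (adjusted p = 0.137), and neither passed the test. The G2/M interactions of HES1, NOTCH1 and NRARP were tested after the per-plate values were seen. How many of all genes cross signs in this way was not counted. Wells under 2000 features, which entered no comparison, held 364 UMIs of the 9 members, 307 of them of HES1, which was present in 131 of 222 such wells.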

How the results depend on the processing

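The 6 calls along the EMT score kept their direction and stayed past the threshold under all 13 or 14 alternatives in which they could be tested, the fit with no replicate block included (6 members called), with log2 ranges of -1.04 to -0.57 for NOTCH1, 0.57 to 0.79 for NOTCH2, 0.74 to 1.43 for JAG1, -1.32 to -1.02 for JAG2, -0.73 to -0.49 for HES1 and -3.21 to -2.03 for NRARP. NOTCH3 along the G2/M score stayed called in 9, at -1.72 to -0.97. Thinning limits every member but NOTCH1, NOTCH2 and HES1, which alone reached the count minimum in terciles. For other changes below, the cause was not tested.

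Members called between resolutions, 1 of 8, became 0 with DESeq2 (1 at unadjusted p under 0.05), 2 with no filter on low counts and 0 after thinning (0 at unadjusted p under 0.05, 7 tested), and 0 to 2 with 1 plate left out. Along the EMT score, 3 of 3 were called after thinning, the members with the most UMIs. Along the G2/M score, the count was 3 without the mitochondrial limit, 0 of 3 after thinning (0 at unadjusted p under 0.05) and 1 to 2 with a plate left out. For the EMT interaction it was 0 with DESeq2, 2 without the mitochondrial limit, 0 after thinning (each 0 with 2 at unadjusted p under 0.05) and 0 to 1 with a plate left out, and for the G2/M interaction 1 to 2. In the EMT interaction DESeq2 gave an adjusted p to NOTCH2 and HES1 alone. Pathway genes called fell from 6 to 2 after thinning between resolutions. Along the EMT score they fell from 15 to 9 with DESeq2, 9 with no replicate block and 5 after thinning. Shares over all genes were not set beside these counts.

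Among members not called, JAG1 along the G2/M score turned to 0.049 with no filter and 0.31 without the mitochondrial limit, and ranged from -0.20 to 0.13 with a plate left out. There NOTCH1 ranged from -0.33 to 0.068 and HES1 from -0.24 to 0.042. JAG2 (-0.64, adjusted p = 0.0289) and NRARP (-0.66, adjusted p = 0.0292) were called there by edgeR without the mitochondrial limit. Over 9 alternatives on that score JAG2 ranged from -0.75 to -0.40 and NRARP from -0.84 to -0.11, and each was called in 2. Between resolutions NOTCH2 ranged from -0.14 to 0.012 and NRARP from -0.59 to 1.78, and HES1 was called with no filter (0.32, adjusted p = 0.0337). In the EMT interaction NOTCH2 turned to -0.13 after thinning and JAG1 to -0.46 with the highest G2/M tercile left out. With a plate left out, NOTCH2 ranged from -0.054 to 0.43, NOTCH3 from -0.70 to 0.14, JAG1 from -0.10 to 0.62 and JAG2 from -0.39 to 0.16. In the G2/M interaction NOTCH2 turned to 0.064 after thinning, JAG2 ranged from -0.36 to 0.70 with a plate left out, and NOTCH3 was called without low-resolution replicate 2 (-1.93, adjusted p = 0.0258).

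Over all genes, calls between resolutions went from 1546 to 1016 after thinning and 987 without high-resolution replicate 2. Along the EMT score they went from 4403 to 2568 after thinning, and along the G2/M score from 5110 to 3354 with DESeq2 and 2814 after thinning. Calls of the EMT interaction went from 303 to 60 with DESeq2, 556 with no filter, 117 after thinning, 111 with the highest G2/M tercile left out, and 98 to 378 with a plate left out. Those of the G2/M interaction went from 95 to 16 with DESeq2, 28 after thinning, and 118 to 159 with a plate left out. Plates with the same replicate number showed no shared deviation (r = -0.038 over 6298 genes). That value compares a single difference between plates per experiment, and the low-resolution difference also holds the flow cell, so it cannot exclude a pairing. With the replicate block, 2008 genes and 1 member were called between resolutions. The median co-detection ratio stayed between 1.03 and 1.15, but single pairs moved at equal depth. In cells drawn anew without the mitochondrial limit, where cells and thinning draw changed together, JAG2 with NOTCH1 went from 1.52 to 0.490 and JAG1 with NOTCH1 from 0.821 to 1.38, and JAG1 and JAG2 with NOTCH2 from 1.06 to 0.95 and from 1.13 to 0.974. At 20000 UMIs these pairs stayed on their side of 1, at 1.12, 0.885, 1.06 and 1.06.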
